A study of Mus musculus with 8 samples.

Results

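The assembled transcript loci described here carry no gene symbol and lie beside, but not over, an annotated gene. They were selected on position and level: no overlap with any locus that has a symbol, at most 10000 bases between the locus and the nearest one on the same chromosome, chromosomes 1 to 19, and an FPKM reaching 1 in 4 hearts or more out of 8. FPKM counts sequenced fragments relative to locus length and library size. The rule kept 1376 of 80155 loci. Of 40541 loci without a symbol, 38944 were autosomal, and of these 10839 flanked a gene, 2809 overlapped a gene and 25296 lay farther away. The flanking loci that reached the level were 12.7% of the 10839, and they stood beside 1049 different nearest genes. The same FPKM chose them and are compared below, so every count over them is a description. Means are given ± SD over the 4 hearts of a stage.

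Whole hearts of male Hsd:ICR(CD-1) mice, an outbred stock, at postnatal day 1 (P1, n = 4) and postnatal day 7 (P7, n = 4) were sequenced, with no treatment named and 1 library per individually labelled mouse. The atrial appendages had been removed from all 8 hearts, and the libraries were made from total RNA depleted of ribosomal RNA, which keeps RNA without a poly(A) tail and unspliced RNA. In whole hearts, fewer cells of a type and less RNA per cell cannot be told apart. The cardiomyocyte markers Myh6, Tnnt2, Actc1, Myl2, Ttn and Ryr2 summed to 17002 to 30104 FPKM in P1 and 19304 to 31285 FPKM in P7 hearts, and 0 of 6 passed limma at an adjusted p under 0.05 (1 of 6 at an unadjusted p under 0.05). Of the 4 fibroblast markers, 3 were higher in P7 (sums 302 to 499 and 706 to 825 FPKM), of the 4 endothelial markers 2 (50.7 to 100.3 and 94.5 to 146 FPKM) and of the 4 smooth muscle and pericyte markers 2 (52.7 to 107 and 96.4 to 177 FPKM). Their part in the results below was not tested. Red cell markers summed to 275 to 799 FPKM in P1 and 736 to 998 FPKM in P7, and 0 of 3 passed. Leukocyte markers stayed at or under 7.22 FPKM in sum, with Cd3e at 0 in at least 1 heart. Liver markers reached 51.7 FPKM in sum in a P1 heart, with 0 passing. Of the skeletal muscle markers, Myh4 and Myh1 stayed at or under 0.0229 and 0.294 FPKM, and Ckm, which heart muscle also expresses, at 268 to 1352 FPKM, with 0 passing.

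Transcription does not keep to the borders of genes. Many mammalian promoters fire in both directions and make an antisense RNA that starts close to the gene's own start and is often short-lived. At the other end, RNA polymerase runs past the poly(A) site before it lets go, and the RNA of this stretch, or of an unannotated longer last exon, lies downstream on the gene's strand. Loci beside a gene can also be separate non-coding genes, copies of repeats or unannotated first exons.

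The 8 libraries differed in how much of the unannotated genome they covered. Loci without a symbol at FPKM of at least 1 numbered 6316 to 14206 in P1 and 4914 to 6090 in P7 hearts, with the highest number in P1 replicate 3. That heart nevertheless had the fewest of the selected loci at this level, 905, against 991 to 1110 in the other P1 and 1024 to 1127 in the P7 hearts. The files hold no fragment counts. Among loci of about 1 kb, the smallest FPKM above 0 was 0.0517 to 0.0841 per heart. If that is 1 fragment, an FPKM of 1 over a kilobase stands for 11.9 to 19.4 fragments, and many values below rest on a handful of fragments.

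Most of the flanking loci were short and weak. Their median length was 961 bases (102 to 88760, with 258 under 350 bases and 112 of at least 10000), and the median distance to the gene was 1949 bases (2 to 9983). The median of their mean FPKM was 1.54, 881 lay under 2 FPKM, 98 reached 10 and 12 reached 100. Of the 98, 60 were shorter than 350 bases. An FPKM of at least 1 was seen in all 8 hearts for 421 loci. A further 18 reached it in P1 hearts only and 26 in P7 hearts only, so these passed the selection through 1 stage. At the distance border, XLOC_030438 beside Mrps18a lay 9983 bases away and XLOC_045939 beside a U6 gene, just outside, 10020 bases. At the level border, the fourth highest heart of XLOC_018493 beside Pik3r1 had 1.00 FPKM, and that of XLOC_019097 beside AL714025.1, just outside, 0.999 FPKM.

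Sequences are given first for loci that reach into the promoter of a neighbouring gene and were called between the stages, a choice made after their values were seen. Each promoter is the RefSeq window on GRCm38.p6 from 250 bases before to 50 bases after the gene's start, 5′ to 3′ on the gene's strand. Capitals mark the bases that the unannotated locus covers.
Shank3 promoter, chr15:89499358-89499657, + strand, with XLOC_024708 upstream on the same strand: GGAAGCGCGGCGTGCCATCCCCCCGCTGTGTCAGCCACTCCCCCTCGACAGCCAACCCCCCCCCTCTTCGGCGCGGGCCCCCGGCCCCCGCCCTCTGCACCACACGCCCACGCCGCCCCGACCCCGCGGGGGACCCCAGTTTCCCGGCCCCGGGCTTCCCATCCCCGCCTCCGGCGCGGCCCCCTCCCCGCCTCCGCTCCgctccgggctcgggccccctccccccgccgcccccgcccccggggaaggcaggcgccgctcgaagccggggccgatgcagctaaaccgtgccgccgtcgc
Pou6f1 promoter, chr15:100599935-100600234, − strand, with XLOC_024868 on the opposite strand: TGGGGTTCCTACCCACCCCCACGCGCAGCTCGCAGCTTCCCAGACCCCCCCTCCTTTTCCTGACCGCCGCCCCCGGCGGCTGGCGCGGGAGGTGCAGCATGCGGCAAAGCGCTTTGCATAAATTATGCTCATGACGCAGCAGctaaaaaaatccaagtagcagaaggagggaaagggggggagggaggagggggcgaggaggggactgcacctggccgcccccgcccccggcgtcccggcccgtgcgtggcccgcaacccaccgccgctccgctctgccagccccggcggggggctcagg
Pdlim5 promoter, chr3:142395647-142395946, − strand, with XLOC_048029 upstream on the same strand: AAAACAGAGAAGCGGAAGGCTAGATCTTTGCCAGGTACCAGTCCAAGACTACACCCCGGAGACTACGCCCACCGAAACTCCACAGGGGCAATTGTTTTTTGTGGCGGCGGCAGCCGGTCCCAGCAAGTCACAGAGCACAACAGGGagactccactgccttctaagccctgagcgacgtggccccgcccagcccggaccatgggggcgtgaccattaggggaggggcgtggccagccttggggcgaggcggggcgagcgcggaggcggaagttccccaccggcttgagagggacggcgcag
Peg3 promoter, chr7:6730370-6730669, − strand, with XLOC_062553 on the opposite strand: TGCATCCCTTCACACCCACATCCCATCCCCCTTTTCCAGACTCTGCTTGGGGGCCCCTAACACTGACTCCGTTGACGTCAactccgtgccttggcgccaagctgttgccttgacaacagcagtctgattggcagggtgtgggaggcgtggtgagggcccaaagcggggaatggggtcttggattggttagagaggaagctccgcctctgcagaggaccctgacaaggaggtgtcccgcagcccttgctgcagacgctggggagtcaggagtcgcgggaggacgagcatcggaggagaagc

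The Shank3 window held 81.0% G and C and 40 CG dinucleotides, that of Pou6f1 70.3% and 26, that of Pdlim5 64.7% and 22, and that of Peg3 61.3% and 13. Over all 32851 promoter windows the medians were 52.7% and 7. The letters TATAAA, on either strand, were in none of the 4 windows and in 13.6% of all windows. The letters CCAAT, on either strand, were in the window of Peg3 and in 37.4% of all windows. A match of letters is a description and not a binding site.

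Several loci without a symbol in the files overlap a non-coding gene of the later annotation GENCODE M21 on the same strand. The first bases of 4 of them in loci that are called below are shown, in capitals throughout because every base lies inside the unannotated locus.
Gm49492, a transcript opposite Pou6f1, in XLOC_024868, chr15:100600204-100600323, + strand: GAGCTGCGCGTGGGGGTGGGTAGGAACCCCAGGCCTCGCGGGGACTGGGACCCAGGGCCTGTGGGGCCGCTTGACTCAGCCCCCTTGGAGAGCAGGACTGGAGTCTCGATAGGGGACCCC
Gm19277, beside Ribc2, in XLOC_026004, chr15:85156013-85156132, − strand: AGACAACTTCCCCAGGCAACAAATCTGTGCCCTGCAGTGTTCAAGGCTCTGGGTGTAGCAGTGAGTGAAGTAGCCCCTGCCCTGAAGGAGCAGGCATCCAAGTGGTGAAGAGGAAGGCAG
Gm37352, upstream of the Mir23a cluster, in XLOC_069122, chr8:84200869-84200988, + strand: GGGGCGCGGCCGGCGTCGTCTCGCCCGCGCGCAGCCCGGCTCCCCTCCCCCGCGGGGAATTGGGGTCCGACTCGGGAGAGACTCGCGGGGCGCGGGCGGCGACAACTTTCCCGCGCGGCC
Gm27675, opposite Peg3, in XLOC_062553, chr7:6730598-6730691, + strand: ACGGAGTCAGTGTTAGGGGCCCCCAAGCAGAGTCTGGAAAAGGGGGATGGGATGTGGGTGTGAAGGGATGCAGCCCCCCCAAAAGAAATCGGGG

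Position relative to the gene divided the loci into 4 classes. Upstream loci on the opposite strand, the place of divergent promoter transcripts, numbered 469 (34.1%), and downstream loci on the gene's strand, the place of transcription past the gene's end, 473 (34.4%). A further 252 (18.3%) lay upstream on the same strand and 170 (12.4%) downstream on the opposite strand, and the strand of 12 was not given. Among the flanking loci that did not reach the level, the shares were 25.3%, 34.7%, 19.2% and 20.4% in the same order. The selected upstream opposite loci sat close to the gene's start. Their median distance was 340 bases and 56.3% of them lay within 500 bases, against 3098.5 bases and 22.1% in the weaker loci of the same class. Downstream loci on the gene's strand had a median distance of 2971 bases, with 20.9% within 500 bases. Strand was read from the order of the locus numbers, which matched GENCODE M21 for 98.8% of 11294 expressed annotated loci whose symbol is carried once, and for 88.8% of all 12940.

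**Figure D1:**
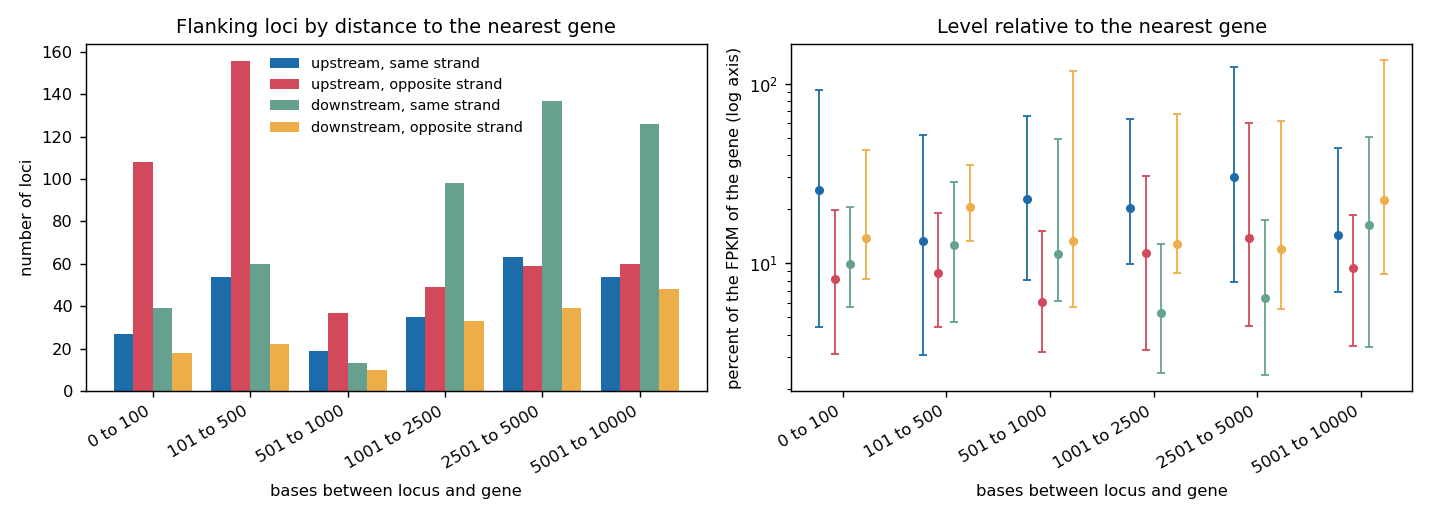
Left, number of flanking loci (vertical axis) by bases between locus and gene (horizontal axis), in bars by side and strand. Right, mean FPKM of the locus as a percent of its nearest gene on a log axis, with points at the median and bars from the lower to the upper quartile, over loci whose gene is expressed. Upstream loci on the opposite strand are most frequent within 500 bases (108 and 156 loci), and downstream loci on the gene's strand beyond 1000 bases (98, 137 and 126 loci).

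Promoters beside flanking loci of every class were richer in CG than promoters at large, most of all beside close divergent loci. Promoters at large were taken whether or not the gene was expressed here, and no set matched for expression was compared. An expressed gene stood beside 401 of the 469 upstream opposite loci, and beside 81 of the 170 downstream opposite loci. The part of expression in these differences was not tested. RefSeq windows were matched for 170 of 260 genes with an upstream opposite locus within 500 bases, and their medians were 66.7% G and C and 27.5 CG dinucleotides. TATAAA occurred in 2.35% of them and CCAAT in 37.6%. Where the upstream opposite locus lay beyond 500 bases, the medians over 85 genes were 63.3% and 21, and TATAAA occurred in 5.88%. With an upstream locus on the same strand within 500 bases the medians were 62.7% and 22 over 36 genes, with TATAAA in 2.78%, and with a downstream locus on the same strand within 500 bases 60.2% and 20 over 60 genes, with TATAAA in 6.67%. Genes with a downstream opposite locus beyond 500 bases had medians of 54.3% and 11 over 59 genes, with TATAAA in 16.9%. Of the upstream loci, 146 reached into the promoter window itself.

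The later annotation accounts for a minority of these loci. Of the 1376, 57 (4.14%) overlapped an exon of the nearest gene on their own strand by at least 1 base in GENCODE M21, 169 (12.3%) an exon of another gene and 1150 (83.6%) no exon. Among the weaker flanking loci the shares were 0.877%, 3.61% and 95.5%. Transcripts met by the 169 were of the type lincRNA for 60 loci, TEC (a class still to be tested experimentally) for 42, protein coding for 21 and bidirectional promoter lncRNA for 14. Of 1139 loci with a strand and no exon, 139 lay in an intron of an M21 gene on their strand, 33 of them in that of the nearest gene, 74 lay over a gene of the other strand only, and 926 lay outside every M21 gene.

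Levels beside an expressed gene were mostly far below that of the gene. Of the 1082 loci whose nearest gene itself reached 1 FPKM in at least 4 hearts, 983 had a lower mean FPKM than the gene and 99 a higher one. The median locus stood at 9.83% of its gene (quartiles 3.81% and 27.7%). By class, the medians were 18.2% upstream on the same strand, 8.62% upstream on the opposite strand, 8.08% downstream on the same strand and 16.8% downstream on the opposite strand. Unannotated loci of the same level that overlap a gene had a median of 20.3% of that gene, and those farther than 10000 bases 19.4% of their nearest expressed gene. Nearest genes were not expressed for 294 loci.

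A few very short loci held a large share of all FPKM. The 1376 loci together made up 23.2% to 40.9% of all FPKM in each heart, and without the 3 loci of highest mean 1.36% to 3.46%. XLOC_003026 (chr1:24615268-24615369, 102 bases) lies 2567 bases upstream of the pseudogene Gm10222 and overlaps Gm28661, which GENCODE M21 lists as an unprocessed pseudogene. This stretch of chromosome 1 is a nuclear copy of mitochondrial DNA, so fragments of mitochondrial RNA and of the locus cannot be told apart here. Its level was 257051, 273040.0, 247029 and 288867 FPKM in P1 and 191743, 322600.0, 240870.0 and 232737 FPKM in P7 hearts. These ranges overlap (log2 fold change −0.13, standard error 0.38, limma adjusted p = 0.847). XLOC_026989 and XLOC_028372 are both strands of 1 interval of 167 bases (chr16:17222325-17222491) downstream of Rimbp3. The first had 23407, 274791, 31312 and 8617 FPKM in P1 and 25300.4, 92966, 2159 and 138527 FPKM in P7, and the second 16689, 1376, 25352 and 13140.2 and 26814, 12428, 2528 and 184701 FPKM. On either strand the hearts of a stage were spread more than 10-fold, and Rimbp3 itself did not exceed 0.13 FPKM in any heart. XLOC_058537 and XLOC_060707 share an interval downstream of the splicing regulator Tra2a (chr6:49236305-49236622) in the same way, at 202 to 51002 and 87.7 to 9843 FPKM over the 8 hearts, while Tra2a kept to 22.1 to 32.5 FPKM. XLOC_018990 beside Gm11271, XLOC_057628 beside Fscn1 and XLOC_068439 beside Rpl31-ps23 complete the 8 highest, at 1272 to 14169, 807 to 6375 and 201 to 1900 FPKM over the hearts. None of the 8 was called by limma or had an unadjusted p under 0.05. All 8 are shorter than 350 bases, where the length correction of FPKM is largest. Beside expressed genes, the highest ratios of mean FPKM to the gene were those of XLOC_003026 (10695), XLOC_058537 (344), XLOC_060707 (135), XLOC_057628 (108) and XLOC_014935 (33.9). The last is a ratio over both stages, in which locus and gene differ strongly, as described below.

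Between P1 and P7, few of the loci were called as changed. On log2(FPKM + 1), with limma and a call where the adjusted p was under 0.05 and the means differed at least 1.5-fold, 32 of 1376 were higher in P7 (2.33%) and 18 lower (1.31%). The background was 3.45% higher and 0.371% lower over all 43172 tested loci, and 7.36% and 0.648% over the 19910 tested loci that met the same FPKM rule. Annotated loci of this level gave 9.16% and 0.417%, loci without a symbol inside genes 1.85% and 0.517%, and those far from genes 1.51% and 1.57%. Every P7 heart lay above every P1 heart in 96 loci (6.98%, background 16.1%) and below in 62 (4.51%, background 2.99%). Of the called loci, 30 of 32 and 17 of 18 had stages that did not overlap, and 10 and 3 stood at 1 FPKM or more in all 8 hearts. Of the 32, 11 reached 1 FPKM in P7 hearts only, and of the 18, 6 in P1 hearts only. These passed the selection through the stage where they are high, so their calls are descriptions and support nothing. Among the loci described below they are XLOC_025790, XLOC_046568, XLOC_065074, XLOC_069977, XLOC_070600, XLOC_071498 and XLOC_071876 in P7, and XLOC_011686, XLOC_038615, XLOC_041395 and XLOC_048029 in P1. More widely, 42 loci had 4 P1 hearts and at most 1 P7 heart at 1 FPKM, and 77 the reverse. They too met the rule through 1 stage. XLOC_014935, XLOC_071787, XLOC_041320, XLOC_009962, XLOC_009713 and XLOC_000668 did so through P1. XLOC_026006 and XLOC_065468 did so through P7. The same limit holds for the calls of all of these, that of XLOC_000668 being of its ratio to the gene. An unadjusted p under 0.05 was given to 256 loci. The median log2 fold change was 0.056, that of their nearest genes 0.15, and that of all tested loci of the same level 0.17. Scaling the hearts by their median ratio moved the median of all tested loci by −0.19 and turned that of the flanking loci to −0.094.

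The calls depend on single hearts. Without P1 replicate 1, 2, 3 or 4 in turn, 18, 4, 10 and 65 loci were called higher and 10, 5, 10 and 24 lower. Without P7 replicate 1, 2, 3 or 4, 7, 25, 7 and 19 were higher and 7, 14, 7 and 16 lower. Median-ratio scaling gave 27 higher and 68 lower, and the 50 loci called here shared 43 with that set.

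Of the 469 loci upstream on the opposite strand 11 were called higher in P7, and of the 252 upstream on the same strand 10. Downstream, 7 of 170 on the opposite strand and 4 of 473 on the same strand were called higher. In the same order of classes, 3, 5, 2 and 7 were called lower, with 1 of unknown strand. Over all 1376 loci, 2.33% were called higher and 1.31% lower. The 8 largest increases with stages that did not overlap had P1 means under 2 FPKM except at Ccs. XLOC_033240 (chr18:31918950-31919189, 240 bases) is divergent to Sft2d3, a gene of vesicle transport, at 2400 bases. It had 1.64, 1.60, 1.29 and 0 FPKM in P1 and 7.86, 8.95, 4.10 and 10.4 FPKM in P7 hearts (log2 fold change 2.09, standard error 0.33, limma adjusted p = 0.00947). The stages did not overlap, while Sft2d3 went from 3.12 ± 0.757 to 4.38 ± 0.863 FPKM (log2 fold change 0.39, limma adjusted p = 0.324).

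XLOC_026004 covers Gm19277, the non-coding transcript printed above, 4513 bases from the end of Ribc2, which codes for a protein of ciliary microtubules. It rose from 1.62, 1.25, 1.25 and 0.815 FPKM to 18.8, 9.85, 5.28 and 4.54 FPKM (log2 fold change 2.07, standard error 0.34, limma adjusted p = 0.0108). Ribc2 had 0.0232, 0.0351, 0.0884 and 0.148 FPKM in P1 and 1.74, 0.695, 0.585 and 0.326 FPKM in P7. The P7 hearts stood in the same order in the locus and the gene, and the P1 hearts did not. The files give the same interval (chr15:85149083-85156322) a second number, XLOC_026006, whose values of 0.963, 0.473, 0 and 3.62 FPKM in P1 and 19.9, 11.5, 1.89 and 6.44 FPKM in P7 overlapped (log2 fold change 2.18, standard error 0.55, limma adjusted p = 0.0483). Both numbers stand for 1 stretch of DNA and enter the counts above separately. XLOC_025790, 482 bases past the end of the sperm centriole gene Spatc1 on the other strand, had 0.306, 0.451, 0.369 and 0.573 FPKM and then 3.40, 7.66, 2.25 and 6.95 FPKM (log2 fold change 1.98, standard error 0.29, limma adjusted p = 0.00694). It reached 1 FPKM in P7 hearts only and was selected through them, and Spatc1 stayed under 0.69 FPKM in all hearts.

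XLOC_035172 had the highest level among these 8. It is 310 bases long and lies 4031 bases past the end of Ccs, the copper chaperone of superoxide dismutase, on the other strand (chr19:4820953-4821262). Its values were 15.3, 20.4, 24.3 and 33.6 FPKM in P1 and 56.2, 85.5, 63.1 and 54.9 FPKM in P7 (log2 fold change 1.47, standard error 0.25, limma adjusted p = 0.0122), and Ccs rose from 9.53 ± 1.62 to 17.9 ± 4.60 FPKM (log2 fold change 0.83, limma adjusted p = 0.0487). Locus and gene thus moved the same way, and their ratio was not called (log2 change 0.64, standard error 0.37, limma adjusted p = 0.442). XLOC_002316 lies 88 bases upstream of Mpc2, a subunit of the mitochondrial pyruvate carrier, and overlaps an M21 exon of that gene on its strand. It had 2.94, 0.434, 1.07 and 0.548 FPKM in P1 and 5.61, 6.32, 6.48 and 3.14 FPKM in P7 (log2 fold change 1.59, standard error 0.31, limma adjusted p = 0.0201), against 529 ± 73.0 and 671 ± 216 FPKM of the gene (log2 fold change 0.30, limma adjusted p = 0.495). The locus makes up 0.553% of the gene's level.

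The remaining named increases lie beside a U6 small nuclear RNA gene, the GTPase gene Arf5 and the translation repressor gene Eif4ebp1. XLOC_046568, which overlaps Gm34302, went from 0.214 ± 0.156 to 4.06 ± 2.99 FPKM (log2 fold change 1.84, standard error 0.38, limma adjusted p = 0.0230), and U6 is listed at 0 in every heart. XLOC_058113 went from 1.09 ± 1.12 to 4.88 ± 0.992 FPKM (log2 fold change 1.63, standard error 0.32, limma adjusted p = 0.0209), and XLOC_069977, which starts 6 bases past the end of Eif4ebp1 on the other strand, from 0.425 ± 0.322 to 2.71 ± 1.37 FPKM (log2 fold change 1.35, standard error 0.26, limma adjusted p = 0.0202). Arf5 and Eif4ebp1 were higher in mean at P7 but were not called (limma adjusted p = 0.140 and 0.0952).

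**Figure D2:**
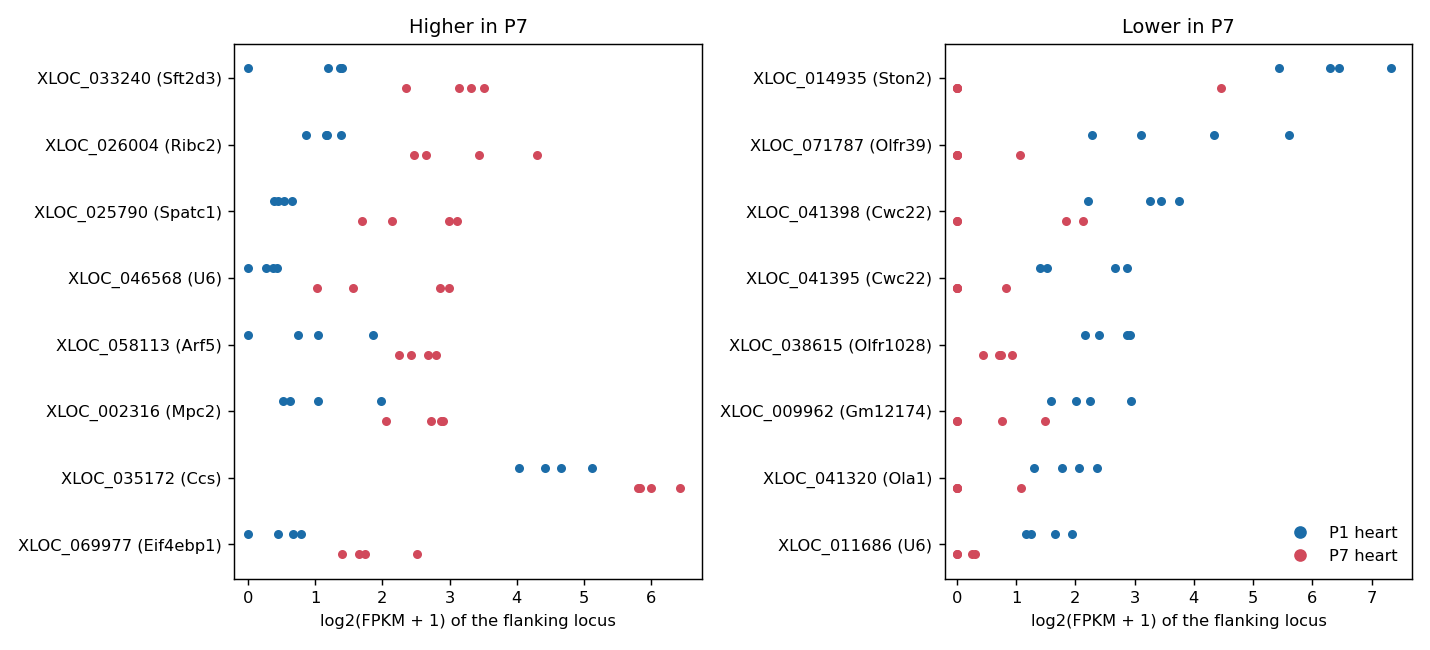
log2(FPKM + 1) of the 8 flanking loci with the largest increase (left) and the 8 with the largest decrease (right), each with its nearest gene in brackets. Each point is 1 heart, blue for P1 and red for P7. The stages do not overlap in any of the 16 loci, and in 7 of the 8 on the right at least 1 P7 heart is listed at 0.

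The largest decrease was at XLOC_014935 (chr12:91631164-91631288, 125 bases), 1435 bases past the end of Ston2 on the other strand. Ston2 codes for the endocytic adaptor stonin 2. The locus had 42.3, 77.5, 159 and 86.3 FPKM in P1, hearts that met the level rule by themselves. In P7 it was listed at 0 in 3 hearts and at 20.98 FPKM in replicate 3 (log2 fold change −5.26, standard error 0.83, limma adjusted p = 0.00902). Ston2 moved the other way, from 0.827, 0.343, 0.653 and 0.708 FPKM to 1.55, 2.73, 2.47 and 2.12 FPKM (log2 fold change 0.97, limma adjusted p = 0.0223), and the ratio of locus to gene was called lower (log2 change −6.23, standard error 0.87, limma adjusted p = 0.0166).

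XLOC_071787 lies 1139 bases past the end of the olfactory receptor gene Olfr39 on its strand. Its values were 7.63, 19.3, 47.5 and 3.86 FPKM in P1, and in P7 it was listed at 0 in 3 hearts and at 1.09 FPKM in replicate 2 (log2 fold change −3.57, standard error 0.56, limma adjusted p = 0.00861). Olfr39 had 1.65, 2.99, 5.06 and 0.269 FPKM in P1 and 0.241, 0.174, 0.196 and 0.124 FPKM in P7 (log2 fold change −1.34, limma adjusted p = 0.0690). In P1, locus and gene were both highest in replicate 3 and lowest in replicate 4. A second olfactory receptor gene, Olfr1028, is listed at 0 in every heart, but XLOC_038615, 6771 bases long and 6153 bases past its end, had 4.28, 6.60, 6.33 and 3.50 FPKM in P1 and 0.682, 0.648, 0.354 and 0.912 FPKM in P7 (log2 fold change −1.88, standard error 0.22, limma adjusted p = 0.00265). It was selected through the P1 hearts alone.

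Cwc22, which codes for a spliceosome protein and shares its locus with Gm13727, has 7 of the loci past its end on its strand. All 7 had a lower mean in P7, and XLOC_041398 and XLOC_041395 were called. XLOC_041398 had 3.65, 8.63, 9.96 and 12.5 FPKM in P1 and 0, 2.60, 0 and 3.37 FPKM in P7 (log2 fold change −2.18, standard error 0.49, limma adjusted p = 0.0311). XLOC_041395 had 1.65, 5.35, 6.36 and 1.87 FPKM in P1 and 0, 0.786, 0 and 0 FPKM in P7 (log2 fold change −1.91, standard error 0.34, limma adjusted p = 0.0150). Cwc22 itself had 43.0, 95.0, 70.1 and 107 FPKM in P1 and 9.46, 39.9, 8.83 and 45.6 FPKM in P7 (log2 fold change −1.84, limma adjusted p = 0.0595). Replicates 1 and 3 of P7, where both loci are listed at 0, were also the hearts with the least Cwc22, and neither ratio to the gene was called (limma adjusted p = 0.477 and 0.948).

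XLOC_009962 beside Gm12174, XLOC_041320 past the end of the ATPase gene Ola1 and XLOC_011686 beside a U6 gene complete the decreases. Their means fell from 3.86 ± 2.00 to 0.623 ± 0.849 FPKM, from 2.80 ± 1.13 to 0.279 ± 0.557 FPKM and from 1.91 ± 0.754 to 0.112 ± 0.130 FPKM (limma adjusted p = 0.0279, 0.0164 and 0.0106). Ola1 differed less between the stages, with 47.9 ± 7.60 and 38.0 ± 11.9 FPKM (log2 fold change −0.36, limma adjusted p = 0.401). At least 1 P7 heart of each of the 3 loci is listed at 0.

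Set beside their genes, the loci shared the direction of change in 661 of 1082 pairs with an expressed gene (61.1%). Locus and gene were measured in the same hearts, so a difference in scale between hearts moves both. The share was 64.0% over 1331 loci inside genes and 52.8% over 780 far from genes. By class it was 68.0% upstream on the same strand, 63.1% upstream on the opposite strand, 59.3% downstream on the opposite strand and 56.8% downstream on the same strand. Of the 32 loci called higher, 26 had a tested gene, which had the same sign in 21 and was itself called in 5. Of the 18 called lower, 14 had a tested gene, with the same sign in 12, called lower in 2 and called higher in 1. Over all 1376 loci, the nearest gene was called higher for 88 and lower for 5.

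The reverse view starts from genes that rose. Beside 74 genes called higher in P7 stood 88 of the loci. Of the 88, 5 were called higher (2.33% over all 1376 loci) and 67 changed upwards in sign (55.7% over all 1376). The median ratio of mean FPKM, P7 over P1, was 1.35 in these loci and 2.19 in their genes, and the locus had the larger ratio in 9 of 88. The genes were chosen by their own rise, so their larger ratio follows in part from the choice and is a description. On log2(FPKM + 1) the medians were 0.28 and 1.04, and with a pseudocount of 0.1, which compresses weak loci less, 0.51 and 1.17. Only 28 of the 88 loci had a mean of at least 2 FPKM.

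**Figure D3:**
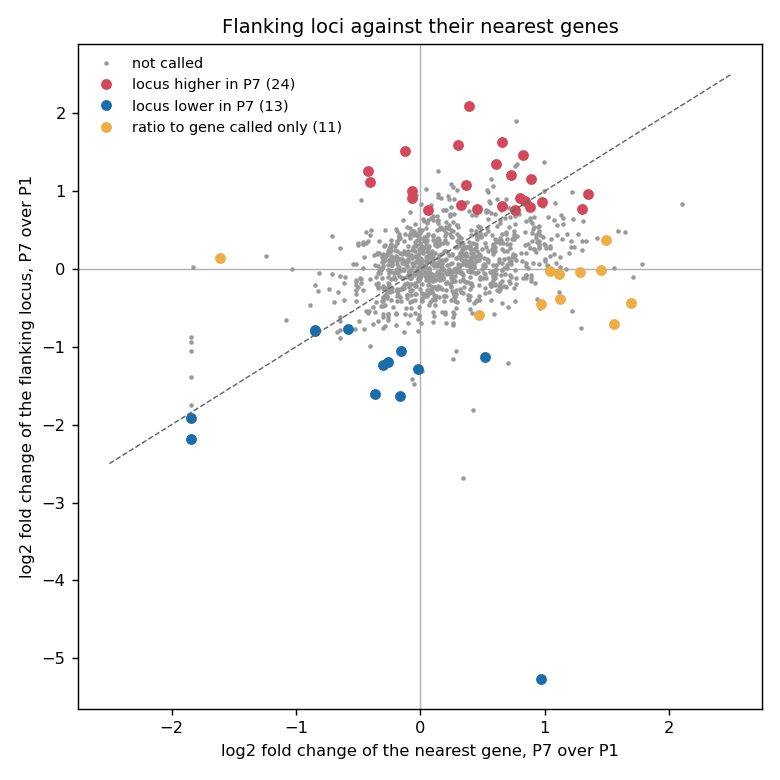
log2 fold change (P7 over P1, on log2(FPKM + 1)) of 1082 flanking loci on the vertical axis against that of their nearest expressed gene on the horizontal axis. Red and blue points mark the 24 and 13 loci called higher and lower, and orange the 11 called only for their ratio to the gene. The dashed line marks equal change. The orange points lie mostly to the right, where the gene is higher in P7, and their locus log2 fold changes are −0.71 to 0.37.

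Whether a locus and its gene changed unequally was tested on the difference of their log2(FPKM + 1) in each heart, over 24328 unannotated autosomal loci. Where the gene is listed at 0 in every heart, the ratio is the locus alone. Among the calls this holds for XLOC_071876 beside SNORA71 (higher), and for XLOC_011686 beside U6 and XLOC_038615 beside Olfr1028 (lower). For these loci, and for the others named above as selected through 1 stage, the call of the ratio is likewise a description. Spatc1 beside XLOC_025790 and Ribc2 beside XLOC_026004 were weak, with P1 means of 0.288 and 0.0736 FPKM. The ratio was called higher in P7 for 5 of the loci (0.363%, background 0.0822%) and lower for 16 (1.16%, background 1.31%). This background includes weaker loci. Among unannotated loci of the same level, the shares were 0.148% and 0.370% inside genes, and 0.441% and 4.66% far from genes. With a pseudocount of 0.1, limma gave 0 and 0 calls among the flanking loci (57 and 94 at an unadjusted p under 0.05, lowest adjusted p = 0.109). Leaving out a P1 heart gave 1, 0, 0 and 4 higher and 5, 0, 0 and 21 lower for replicates 1 to 4, and leaving out a P7 heart 0, 2, 0 and 3 higher and 0, 6, 2 and 4 lower. The largest rise of the ratio beside an expressed gene was at XLOC_010299, 1273 bases past the end of the non-coding gene Gm12295 on the other strand. The locus had 3.57, 4.67, 2.98 and 6.01 FPKM in P1 and 6.23, 4.49, 4.88 and 3.56 FPKM in P7, ranges that overlap. Gm12295 fell from 12.6, 14.3, 12.8 and 20.9 FPKM to 3.88, 5.39, 4.69 and 3.01 FPKM (log2 fold change −1.61, limma adjusted p = 0.00560), and the ratio rose (log2 change 1.75, standard error 0.23, limma adjusted p = 0.0166; with a pseudocount of 0.1, adjusted p = 0.124). XLOC_070600, past the end of the antiviral gene Bst2 on its strand and over Ccdc194 of the later annotation, had 0.548, 0.519, 0.223 and 0.902 FPKM in P1 and 3.11, 2.98, 2.48 and 2.09 FPKM in P7 (log2 fold change 1.25, standard error 0.20, limma adjusted p = 0.00952). Bst2 went from 7.07 ± 1.75 to 5.15 ± 1.98 FPKM (log2 fold change −0.42, limma adjusted p = 0.386), and the ratio was called (log2 change 1.67, standard error 0.25, limma adjusted p = 0.0202; with 0.1, 0.109).

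Of the 16 ratios that fell, 10 stood beside a gene that was itself called higher. Col3a1, the type III collagen gene of the fibroblast matrix, rose from 211, 155, 168 and 411 FPKM to 699.5, 578, 724 and 578 FPKM (log2 fold change 1.55, limma adjusted p = 0.0177). XLOC_000668 (chr1:45352221-45353341), 2514 bases past its end on the same strand, had 1.32, 2.82, 2.07 and 3.77 FPKM in P1 and 2.57, 0.737, 0.513 and 0.936 FPKM in P7 and was not called (log2 fold change −0.71, standard error 0.29, limma adjusted p = 0.220). The highest P7 heart of the locus, replicate 1, lay among the P1 hearts, and the ratio was called lower (log2 change −2.26, standard error 0.35, limma adjusted p = 0.0229; with 0.1, 0.129). The locus met the level rule through the P1 hearts, where its mean is higher, so the call of this ratio is a description. The part in this ratio of the 3 fibroblast markers that were higher in P7 was not tested. Beside Dhrs3, a retinaldehyde reductase gene, XLOC_053279 had 1.18, 0.813, 1.36 and 1.52 FPKM in P1 and 0.284, 0.445, 1.54 and 0.468 FPKM in P7, while the gene went from 9.31 ± 1.38 to 32.7 ± 7.96 FPKM (log2 fold change 1.69, limma adjusted p = 0.00356; ratio: log2 change −2.13, standard error 0.29, limma adjusted p = 0.0166; with 0.1, 0.124).

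XLOC_009713 and XLOC_037595 complete the named ratios. XLOC_009713, divergent to the acylphosphatase gene Acyp2, fell from 4.03, 1.37, 2.24 and 1.74 FPKM to 0.493, 1.11, 0.457 and 0 FPKM (log2 fold change −1.13, standard error 0.28, limma adjusted p = 0.0423), and the gene had 60.0 ± 7.57 and 88.5 ± 23.4 FPKM (log2 fold change 0.52, limma adjusted p = 0.233). XLOC_037595, divergent to Ier5l, was near 1.10 FPKM in P1 and 0.642 FPKM in P7 (log2 fold change −0.39, standard error 0.23, limma adjusted p = 0.378), and Ier5l rose from 3.31 ± 0.607 to 8.48 ± 1.90 FPKM (log2 fold change 1.12, limma adjusted p = 0.0164). Both ratios were called lower (limma adjusted p = 0.0491 and 0.0280; with 0.1, 0.212 and 0.138). XLOC_025817, chosen here because its gene is the myoglobin gene Mb, extends over 10749 bases from 798 bases past the end of Mb. It had 3.33, 1.85, 2.09 and 2.94 FPKM in P1 and 3.10, 2.55, 2.35 and 1.93 FPKM in P7, with no separation of the stages, while Mb rose from 2259 ± 339 to 6232 ± 1271 FPKM (log2 fold change 1.45, limma adjusted p = 0.0141). The ratio was called lower (log2 change −1.47, standard error 0.29, limma adjusted p = 0.0354).

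Beside the listed genes of contraction, calcium handling and mitochondria no flanking locus was called. Mpc2, Pdlim5 and Trim55, whose loci were called, are not on these lists. Over all 1376 loci, the base for this and the following lists, limma called 2.33% higher and 1.31% lower, and 256 had an unadjusted p under 0.05. At these shares, few calls arise in lists of this size. Of 34 sarcomere and contraction genes, 10 had 22 of the loci, of which limma called 0 in either direction (10 at an unadjusted p under 0.05). The strongest was XLOC_022953 (chr14:54967346-54967633, 288 bases), 418 bases upstream of Myh6, the adult cardiac myosin heavy chain gene, on its strand. XLOC_022953 also lies past the end of Myh7 (chr14:54968787-54994634) on the strand of that gene, and Myh6 is the nearer gene. It had 118, 98.6, 71.6 and 144 FPKM in P1 and 147, 71.2, 131 and 139.8 FPKM in P7, 2.86% of the level of Myh6, and the stages overlap (log2 fold change 0.17, standard error 0.28, limma adjusted p = 0.722). Under median-ratio scaling its sign turned. Upstream of Myl2, the ventricular myosin light chain gene, 6 loci ran in a row on the gene's strand. Their log2 fold changes were 0.14 to 1.25. XLOC_055064, the strongest by mean, had 13.9, 10.9, 8.99 and 16.0 FPKM in P1 and 22.0, 18.1, 20.8 and 15.2 FPKM in P7 (log2 fold change 0.59, standard error 0.21, limma adjusted p = 0.159), and XLOC_055063 beside it 12.1, 8.25, 4.84 and 17.7 and 21.5, 17.1, 23.8 and 18.1 FPKM (log2 fold change 0.97, standard error 0.30, limma adjusted p = 0.105). Limma called 0 of the 6 (4 at an unadjusted p under 0.05), and Myl2 had 11546 ± 2753 and 12648 ± 2366 FPKM (log2 fold change 0.14, limma adjusted p = 0.776). Of 25 calcium and ion channel genes 12 had 13 loci (0 called, 2 at an unadjusted p under 0.05), and of 41 genes of mitochondria and fuel use 7 had 7 (0 called, 1 at an unadjusted p under 0.05, 1 ratio lower, that of Mb).

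A row of 6 loci on the strand of Ngdn lies in the interval between Myh7, the fetal cardiac myosin heavy chain gene, and Ngdn, a translation regulator gene, and was singled out after its values were seen. XLOC_021420 starts 1589 bases from the 5′ end of Myh7 on the opposite strand (chr14:54996224-54999684), and XLOC_021425 (chr14:55006695-55007127) ends the row 8326 bases before Ngdn. XLOC_021420 had 52.7, 45.3, 34.4 and 77.9 FPKM in P1 and 31.6, 19.9, 52.4 and 33.6 FPKM in P7 (log2 fold change −0.62, standard error 0.30, limma adjusted p = 0.295). XLOC_021421, next in the row, had 30.7, 20.9, 18.1 and 45.0 FPKM in P1 and 10.1, 6.78, 21.7 and 11.4 FPKM in P7 (log2 fold change −1.16, standard error 0.34, limma adjusted p = 0.0794). In both, the highest P7 heart, replicate 3, lay within the P1 range. XLOC_021422, XLOC_021423 and XLOC_021424 had log2 fold changes of −0.70, −0.56 and −0.64, not called (limma adjusted p = 0.286, 0.489 and 0.235). The last, XLOC_021425, fell from 4.75, 5.61, 3.83 and 10.4 FPKM to 0.776, 1.79, 2.12 and 2.79 FPKM (log2 fold change −1.29, standard error 0.29, limma adjusted p = 0.0326), and its ratio to Ngdn was called lower (log2 change −1.27, standard error 0.24, limma adjusted p = 0.0320). Myh7 had 182.2 ± 128 and 196 ± 62.2 FPKM (log2 fold change 0.26, limma adjusted p = 0.677), and Ngdn 11.1 ± 4.20 and 10.5 ± 2.10 FPKM (log2 fold change −0.0220, limma adjusted p = 0.962).

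**Figure D4:**
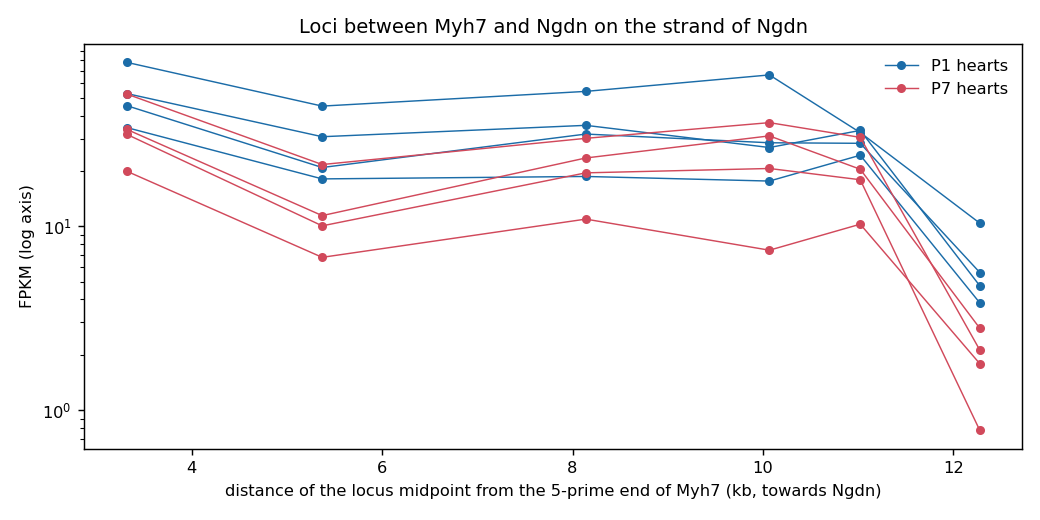
FPKM on a log axis of the 6 flanking loci between Myh7 and Ngdn against the distance of their midpoint from the 5′ end of Myh7 in kb, with 1 line per heart, blue for P1 and red for P7. The first 5 loci overlap between the stages, and at the sixth, XLOC_021425, every P7 heart (0.776 to 2.79 FPKM) lies below every P1 heart (3.83 to 10.4 FPKM).

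Some loci that count as flanking lie inside a longer gene of the later annotation. GENCODE M21 gives Cacna1c, the pore subunit of the cardiac L-type calcium channel, the interval chr6:118587240-119196418 on the − strand, while the deposited Cacna1c locus ends at 118780324. Within the M21 interval and on its strand were 26 of the loci in 17 intervals, with U6 (15 loci) and Dcp1b (11 loci) as their nearest genes. The 15 loci beside U6 had P1 means of 7.44 to 27.1 FPKM and P7 means of 4.12 to 14.3 FPKM, lower in P7 in 15 of 15. The 11 loci beside Dcp1b had P1 means of 13.6 to 37.9 FPKM and P7 means of 10.1 to 40.7 FPKM, lower in P7 in 8 of 11. All of these 11 except XLOC_061841 are numbers for 1 interval, chr6:119145716-119170365. The 15 beside U6 lie in a row within chr6:118824827-118845481 and were measured in the same hearts. Neither count is therefore one of independent loci. The median level of the 15 was 11.3, 10.3, 7.15 and 18.2 FPKM in the P1 hearts and 9.25, 5.84, 9.85 and 8.60 FPKM in the P7 hearts, so the stages overlap. None of the 26 was called by limma (lowest adjusted p = 0.0907, 5 at an unadjusted p under 0.05). The deposited Cacna1c locus had 31.2, 24.97, 19.9 and 48.1 FPKM in P1 and 51.8, 41.8, 42.4 and 35.9 FPKM in P7 (log2 fold change 0.52, limma adjusted p = 0.294). The strongest locus named by the calcium list, XLOC_062404, upstream of Cacna1c with no strand given, had 12.2 ± 5.18 and 12.4 ± 7.80 FPKM.

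Regulators of the heart were flanked as follows. Of 27 cardiac transcription factor genes 10 had 18 loci, 1 of them called higher, 8 at an unadjusted p under 0.05 and 1 with a lower ratio. The called locus was XLOC_071498, divergent to Yap1, the effector of Hippo signalling, which overlaps Gm45494 of the later annotation. It rose from 0.446, 0.447, 0.280 and 0.739 FPKM to 1.52, 1.10, 2.42 and 1.53 FPKM (log2 fold change 0.82, standard error 0.21, limma adjusted p = 0.0467), and Yap1 had 25.3 ± 5.96 and 31.6 ± 4.62 FPKM (log2 fold change 0.33, limma adjusted p = 0.399). Upstream of Gata6, 3 locus numbers share an interval of 31313 bases, XLOC_032972 on the strand of Gata6 and XLOC_034147 and XLOC_034148 opposite. XLOC_034148, the strongest, had 12.1, 11.1, 9.85 and 15.2 FPKM in P1 and 9.20, 7.96, 6.37 and 7.09 FPKM in P7 (log2 fold change −0.59, standard error 0.19, limma adjusted p = 0.121). Every P7 heart was below every P1 heart without a call. XLOC_034147, on the same strand of the same interval, had 2.79 ± 0.849 and 4.22 ± 3.75 FPKM (log2 fold change 0.19, standard error 0.42, limma adjusted p = 0.788), and Gata6 had 48.2 ± 13.8 and 66.6 ± 15.2 FPKM (log2 fold change 0.47, limma adjusted p = 0.310). The ratio to Gata6 was called for XLOC_032972 (log2 change −1.07, standard error 0.23, limma adjusted p = 0.0460) and was close to the threshold for XLOC_034148 (limma adjusted p = 0.0568).

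The other lists gave single loci. Of 34 cell cycle genes 2 had 4 loci, 1 called higher (that of Cdkn1c, below) and 3 that are numbers for 1 interval of 23354 bases past the end of Cdkn1b, over Lockd of the later annotation. XLOC_059821, the strongest, had 6.93 ± 2.79 and 7.96 ± 2.33 FPKM (log2 fold change 0.20, standard error 0.28, limma adjusted p = 0.667), and the cell cycle inhibitor Cdkn1b rose from 29.4 ± 4.71 to 54.3 ± 13.9 FPKM (log2 fold change 0.85, limma adjusted p = 0.0444). XLOC_003586 past the end of Acadl, the long-chain acyl-CoA dehydrogenase gene, had 3.78 ± 1.07 and 2.74 ± 0.651 FPKM, XLOC_074208 past the end of Mcam 3.97 ± 0.646 and 4.73 ± 0.832 FPKM, and XLOC_036911 divergent to the β1-adrenergic receptor gene Adrb1 1.09 ± 1.09 and 1.30 ± 0.329 FPKM, all without a call. The sign of XLOC_059821 and of XLOC_074208 turned under median-ratio scaling. Of 34 matrix and fibroblast genes 1 had 1 locus, that of Col3a1, of 27 endothelial and vascular genes 3 had 3 and of 35 hormone and stress genes 1 had 2 (0 called by limma, 0 at an unadjusted p under 0.05 in the last 2 lists).

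Imprinted genes had few loci, and these moved in both directions. Of 30 imprinted and fetal growth genes 3 had 1 locus each, 1 higher and 1 lower in P7. XLOC_062553 starts 98 bases from Peg3, a paternally expressed zinc finger gene, on the opposite strand, and its 39628 bases run over Usp29, the divergent partner of Peg3. It had 3.92, 3.30, 3.02 and 4.28 FPKM in P1 and 1.61, 1.75, 2.28 and 1.21 FPKM in P7 (log2 fold change −0.78, standard error 0.19, limma adjusted p = 0.0435). The stages do not overlap, and Peg3 had 39.4 ± 8.58 and 26.0 ± 6.14 FPKM (log2 fold change −0.58, limma adjusted p = 0.174). XLOC_065074, divergent to the growth inhibitor gene Cdkn1c at 480 bases, rose from 0.675, 0.502, 0 and 0.299 FPKM to 2.67, 2.25, 2.68 and 1.11 FPKM (log2 fold change 1.21, standard error 0.24, limma adjusted p = 0.0215), with Cdkn1c at 24.6 ± 6.19 and 40.9 ± 5.72 FPKM (log2 fold change 0.73, limma adjusted p = 0.0750). The third, XLOC_066540 beside Snrpn and over Snhg14 of the later annotation, had 2.03, 1.88, 1.42 and 1.01 FPKM in P1 and 0.277, 0.601, 0.592 and 0.806 FPKM in P7 and was not called (log2 fold change −0.71, standard error 0.21, limma adjusted p = 0.0799). In the maternally expressed non-coding RNA region of chromosome 12, outside the list and chosen after its values were seen, XLOC_015158 and XLOC_015159 lie next to each other beside the SNORD113 small nucleolar RNA genes and Mir882. XLOC_015159 lies within Gm37899 of the later annotation, and XLOC_015158 overlaps it over 361 of its 5020 bases. XLOC_015158 fell from 3.56, 4.28, 4.41 and 5.03 FPKM to 1.90, 1.71, 2.88 and 1.96 FPKM (log2 fold change −0.78, standard error 0.19, limma adjusted p = 0.0400) and XLOC_015159 from 2.04, 2.76, 2.45 and 4.08 FPKM to 1.08, 1.07, 1.36 and 1.15 FPKM (log2 fold change −0.80, standard error 0.20, limma adjusted p = 0.0447). Their nearest annotated loci fell by about as much (log2 fold changes −0.84 and −0.84, limma adjusted p = 0.0376 and 0.0435).

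Among the loci whose sequences are printed above, the 2 at the Shank3 and Pou6f1 promoters rose and that at Pdlim5 fell. XLOC_024708, upstream of the synaptic scaffold gene Shank3, went from 3.86, 5.04, 3.02 and 4.43 FPKM to 13.0, 7.22, 14.1 and 8.20 FPKM (log2 fold change 1.16, standard error 0.23, limma adjusted p = 0.0224), with Shank3 at 8.01 ± 2.46 and 15.3 ± 2.92 FPKM (log2 fold change 0.89, limma adjusted p = 0.0595). XLOC_024868, divergent to the POU factor gene Pou6f1, went from 3.22, 3.53, 2.46 and 2.60 FPKM to 6.47, 5.79, 4.70 and 5.62 FPKM (log2 fold change 0.75, standard error 0.18, limma adjusted p = 0.0399). Pou6f1 rose with it (log2 fold change 0.76, limma adjusted p = 0.0484), and the log2 ratio changed by −0.00536 (limma adjusted p = 0.991). XLOC_048029 spans 34374 bases upstream of the Z-disc gene Pdlim5 on its strand, and fell from 1.57, 1.26, 1.50 and 3.94 FPKM to 0.571, 0.296, 0.172 and 0.628 FPKM (log2 fold change −1.05, standard error 0.26, limma adjusted p = 0.0418) with Pdlim5 at 226 ± 55.8 and 203 ± 45.5 FPKM (log2 fold change −0.15, limma adjusted p = 0.702).

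XLOC_069122 lies 2032 bases upstream of Mir23a on its strand and covers Gm37352, and this strand of chromosome 8 carries 3 microRNAs in a row. Their mature 3p arms are given from RefSeq on GRCm38.p6, with the seed (bases 2 to 8) in capitals.
mmu-miR-23a-3p: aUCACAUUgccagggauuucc
mmu-miR-27a-3p: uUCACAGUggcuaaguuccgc
mmu-miR-24-3p: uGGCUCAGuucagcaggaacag
The 3 seeds differ from each other. The locus rose from 5.995, 4.61, 4.08 and 5.71 FPKM to 11.4, 8.81, 11.5 and 8.16 FPKM (log2 fold change 0.84, standard error 0.19, limma adjusted p = 0.0332), with the stages apart. Mir23a itself is listed at 0 in all hearts, and the libraries were not made for mature microRNAs.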

How the data were processed

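The 8 deposited tables, 1 per heart, held 80155 loci of a joint assembly with coordinates on GRCm38 and an FPKM value each. Per the labels and the study's methods, the authors depleted total RNA of ribosomal RNA, made paired-end libraries, aligned them to GRCm38 with Ensembl 70 and summed fragments per locus into FPKM. The aligner and its version are not given in the sources used here. No fragment counts were used, so no count model was run and depth is known only from the smallest FPKM steps. The members and the gene lists were chosen with earlier results of these data known.

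Log2(FPKM + 1) was compared between the stages with limma 3.58.1 (R 4.3.3, trend = TRUE) over the 43172 loci that reached 1 FPKM in at least 1 heart, with Benjamini-Hochberg adjustment. The pseudocount understates changes of weak loci. For the ratio, the log2 values of locus and nearest annotated gene were subtracted within each heart and fitted over 24328 loci. Side was set by the gene's strand in GENCODE M21, and locus strand by the order of locus numbers. The named loci were the 8 of highest mean, the 8 largest called changes each way without overlap, the 5 largest called ratio changes each way beside an expressed gene, the 5 highest ratios to a gene and the strongest locus of each list. Loci named beyond this rule were chosen after their values were seen. Alternatives were a pseudocount of 0.1, other filters, median-ratio scaling, a replicate block and leaving out each heart. The fits were tested on simulated data, and tables were handled in pandas 2.3.3 under Python 3.11.15. Sequences came from RefSeq (GRCm38.p6) and GENCODE M21 tables, matched by symbol for the promoters of 811 loci.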

Additional observations from a re-analysis of the deposited data

Results flagged for a closer look

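Single hearts that stood apart from the 3 others of their stage were looked for in the 2 stages of the named loci, 82 groups in all, by the gap to the nearest heart over the whole range of the group, against the 95% critical value of Dixon for 4 values. Chance gives such a heart in about 1 of 20 groups, 4.1 of 82, and 11 were found. The very short loci of high FPKM gave 4 of them. XLOC_026989 beside Rimbp3 had 274791 FPKM in P1 replicate 2 against 8617 to 31312 FPKM in the other P1 hearts (0.915), and XLOC_028372 on the other strand 184701 FPKM in P7 replicate 4 against 2528 to 26814 FPKM (0.867). XLOC_058537 beside Tra2a had 51002 FPKM in P7 replicate 4 against 295 to 4911 FPKM (0.909), and XLOC_018990 beside Gm11271 14169 FPKM in P7 replicate 3 against 1272 to 2876 FPKM (0.876).

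Among loci that were lower in P7, 4 had 3 P7 hearts listed at 0 and 1 above it, which gives the ratio its highest value of 1. These were XLOC_014935 beside Ston2 (20.98 FPKM in replicate 3), XLOC_071787 beside Olfr39 (1.09 FPKM in replicate 2), XLOC_041395 beside Cwc22 (0.786 FPKM in replicate 2) and XLOC_041320 beside Ola1 (1.11 FPKM in replicate 4). P7 replicate 3 was apart at XLOC_053279 beside Dhrs3 (1.54 against 0.284 to 0.468 FPKM, 0.854) and at XLOC_037595 beside Ier5l (1.41 against 0.320 to 0.452 FPKM, 0.879), both of which count among the lower ratios to the gene. XLOC_003586 beside Acadl was low in P7 replicate 2 (1.77 against 2.98 to 3.16 FPKM, 0.871).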

How the results depend on the processing

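With 32 loci called higher and 18 lower, testing without a level filter gave 3 and 1, and median-ratio scaling gave 27 and 68. Leaving out 1 heart gave 4 (without P1 replicate 2) to 65 (without P1 replicate 4) higher and 5 to 24 lower, with the same hearts at the ends. Against 5 higher and 16 lower ratios, a pseudocount of 0.1 gave 0 and 0, median-ratio scaling 3 and 10 (12 of these calls shared), loci at 1 FPKM in every heart 4 and 8, and leaving out 1 heart 0 to 4 and 0 to 21. The labels give both stages replicate numbers 1 to 4. Deviations of same-numbered hearts correlated at −0.031 on average (−0.28 to 0.22), against 0.010 for different numbers. With 4 such pairs, these values cannot settle whether same-numbered hearts share more than a number. With the number as a replicate block limma gave 24 higher and 24 lower loci (34 of the 50 calls in both) and 0 higher and 3 lower ratios (71 and 171 at an unadjusted p under 0.05). The rule kept 421 loci at 1 FPKM in every heart and 488 at 2 FPKM in 4, with 1083 within 5000 bases.

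The median log2 fold change turned to −0.094 under median-ratio scaling, as did single loci whose stages overlap: XLOC_010299 (−0.072), XLOC_022953 (−0.094), XLOC_059821 (−0.025) and XLOC_074208 (−0.011). Leaving out 1 heart turned the sign of XLOC_026989 (−1.08 to 0.92), XLOC_058537 (−0.25 to 2.23), XLOC_060707 (−1.31 to 1.11), XLOC_022953 (−0.013 to 0.41), XLOC_062404 (−0.41 to 0.25) and XLOC_059821 (−0.012 to 0.41). Over all settings of the single named loci, 445 values kept direction and side of the threshold, 155 no longer passed it, 1 newly passed and 17 changed sign. The causes were not tested. At 11.9 to 19.4 fragments per FPKM and kb, the shortest loci near 1 FPKM rest on few fragments.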

Other observations

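Some genes were flanked by several loci, and the following were chosen after their values were seen. At least 4 loci each stood beside 22 genes, 160 loci in all. The most, 21, stood beside Zfp951, a zinc finger gene of 0.657 FPKM in P1 and 0.648 FPKM in P7, and 20 of them lay upstream on its strand. Their mean levels were 1.11 to 4.88 FPKM and their log2 fold changes −0.68 to 0.77, with 0 called by limma. Upstream of the apoptosis gene Bbc3, 4 loci on the opposite strand had log2 fold changes of 0.27 to 0.80. XLOC_065468, the called one, had 0.489, 0.561, 0.422 and 1.15 FPKM in P1 and 2.23, 1.73, 1.97 and 1.50 FPKM in P7 hearts (log2 fold change 0.80, standard error 0.20, limma adjusted p = 0.0450), and Bbc3 1.99 ± 0.378 and 4.87 ± 2.84 FPKM (log2 fold change 0.88, limma adjusted p = 0.101). At Tbx20, a cardiac transcription factor gene, XLOC_071870, divergent to it over 28250 bases and overlapping Gm29824, had 2.22, 1.98, 1.57 and 2.46 FPKM in P1 and 3.63, 3.77, 3.77 and 2.39 FPKM in P7 hearts. XLOC_073907, past the end of Tbx20 on its strand, had 3.00, 1.51, 2.42 and 3.39 FPKM in P1 and 0.827, 0.953, 1.69 and 1.13 FPKM in P7 hearts. In each locus the hearts of the stages overlapped, and neither was called (limma adjusted p = 0.175 and 0.0980).

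Past the end of Trim55, a sarcomere-associated ubiquitin ligase gene, XLOC_043492 had 4.50, 3.59, 3.57 and 6.25 FPKM in P1 and 1.32, 1.65, 0.890 and 1.34 FPKM in P7 hearts (log2 fold change −1.24, standard error 0.21, limma adjusted p = 0.0121). Trim55 itself had 180.1 ± 62.6 and 141 ± 15.3 FPKM (log2 fold change −0.30, limma adjusted p = 0.486). Upstream of the aldehyde dehydrogenase gene Aldh2 and on its strand, XLOC_057334 rose with the gene, from 1.61 ± 0.371 to 3.41 ± 0.316 FPKM (log2 fold change 0.76, standard error 0.18, limma adjusted p = 0.0373) against 8.19 ± 3.98 to 20.4 ± 4.18 FPKM (log2 fold change 1.30, limma adjusted p = 0.0291). In the nuclear copy of mitochondrial DNA beside Gm10222, the interval chr1:24612996-24613445 carries a locus number on each strand. XLOC_003024 on the − strand had 47.3, 30.1, 34.1 and 40.3 FPKM in P1 and 135, 72.0, 75.2 and 63.1 FPKM in P7 hearts (log2 fold change 1.12, standard error 0.25, limma adjusted p = 0.0318). XLOC_000359 on the + strand had 36.8, 40.1, 40.3 and 27.8 FPKM in P1 and 8.27, 15.2, 22.6 and 32.8 FPKM in P7 hearts (log2 fold change −0.99, standard error 0.33, limma adjusted p = 0.128). The strands of this interval differed in direction, and the difference between them was not tested.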
